A study of Mus musculus with 9 samples.

Results

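The genes examined here were the Wnt genes of the mouse lung: the secreted Wnt ligands, their receptors, the secreted proteins that block them, the R-spondin branch that tunes receptor number, and 3 genes inside the responding cell, Axin1, Axin2 and Lef1. They were chosen with earlier results of these data known, by name patterns for each family, which took 55 of the 32671 gene rows in the deposited table. By role these were 19 Wnt ligands, 12 receptors (the frizzleds with Lrp5 and Lrp6), 10 inhibitors, 9 genes of the R-spondin axis, 3 genes in the group of Axin1, Axin2 and Lef1, and 2 antisense genes named after a family member (Fzd10os and Rspo4os).

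The study measured polyadenylated RNA of whole lung by stranded RNA sequencing in 3 groups of 3 libraries, all from C57BL/6 mice of genotype WT and all labelled day 21. Saline was given to the control group and bleomycin to the group named after it; bleomycin is a drug that injures the alveoli and is widely used to provoke lung scarring in mice. The group called LNP here received bleomycin and also inhaled lipid nanoparticles, named in the labels as mCas9/gSting@DOPS LNP, which carry a Cas9 cargo and a guide against the gene of the innate immune sensor STING. Age, dose and pooling of animals are not given in the labels, nor is it stated that the libraries come from separate animals, so every p-value below measures the spread between these libraries, which may be technical. A bleomycin group that received particles without the guide is not analysed here, so effects of the particle and of the guide cannot be told apart.

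Wnt proteins are lipid-modified ligands that bind a frizzled receptor together with Lrp5 or Lrp6; the bound receptor disables the Axin-containing complex that destroys beta-catenin, and beta-catenin then drives transcription with Lef1 and its relatives, including that of Axin2 and Rnf43, which dampen the signal. Secreted frizzled-related proteins and Wif1 bind the ligands, and some Dickkopf proteins, Dkk2 among them, bind the Lrp co-receptors. R-spondins bind Lgr receptors and draw off the ubiquitin ligases Rnf43 and Znrf3, which otherwise remove frizzleds from the cell surface. In the lung, Wnt ligands from stromal and epithelial cells act in branching, in the upkeep of alveolar type 2 cells and in repair after injury.

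Levels are given as CPM, counts relative to a library's scaled total, always in the order replicate 1, 2, 3; FPKM, which also divides by transcript length, is used where genes are compared with each other. A gene is called changed where the adjusted p of edgeR's quasi-likelihood test over all genes tested was under 0.05, and fold changes are log2 values ± SE. The libraries held 56047830 to 69404903 counts, and 49 of the 55 genes had enough counts to be tested, among 20794 genes in all. The 6 others stayed under 0.5 CPM in every library: their highest values were 0.442 CPM for Wnt3, 0.226 for Wnt16, 0.209 for Dkk1, 0.166 for Rspo4os, 0.0621 for Wnt8a and 0.0605 for Wnt8b. Markers of alveolar type 1, type 2 and club cells were present in every library. LNP replicate 3 stood apart: 6 skeletal muscle markers summed to 7364 CPM there, whereas the highest sum elsewhere was 50.9 CPM, and 6 squamous epithelium markers summed to 1829.9 CPM, with a highest sum elsewhere of 32.0 CPM. The muscle genes Myh4 and Myh1 and the squamous genes Krt4 and Sprr3 were at 0 in some of the other libraries. Comparisons with the LNP group are therefore given with and without this library. Sting1, the targeted gene, was not called in LNP against bleomycin (0.22 ± 0.17, adjusted p = 0.48). Its FPKM was 6.28, 7.61 and 7.2 in the saline lungs, 16.4, 13.4 and 13.5 after bleomycin, and 18.1, 21.8 and 15.1 with the LNP, and whether the gene was edited was not tested.

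The first comparison asked how the Wnt genes of the injured lung differed from those of the saline lung. Bleomycin lungs had more RNA of 13 Wnt genes and less of 16, while 20 were not called. The 13 higher genes included the ligands Wnt10a, Wnt7a and Wnt7b, the receptor Fzd1 and the inhibitors Sfrp1 and Frzb. The 16 lower ones included the ligands Wnt3a and Wnt10b, the receptor Fzd7, the inhibitor Wif1, and Axin2 and Lef1. Of the tested Wnt genes 59.2% were called, against 33.7% of all genes tested (15.2% higher and 18.5% lower). Their median log2 fold change was -0.41 against -0.046 for all genes, and the median size of the change without its sign was 1.10 against 0.578. The 3 bleomycin libraries lay wholly above the 3 control libraries for 16 Wnt genes and wholly below for 21, and groups failed to overlap for 55.5% of all genes tested. Whole lung was sequenced, so fewer cells of a type and less RNA per cell cannot be told apart in any of these changes.

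**Figure D1:**
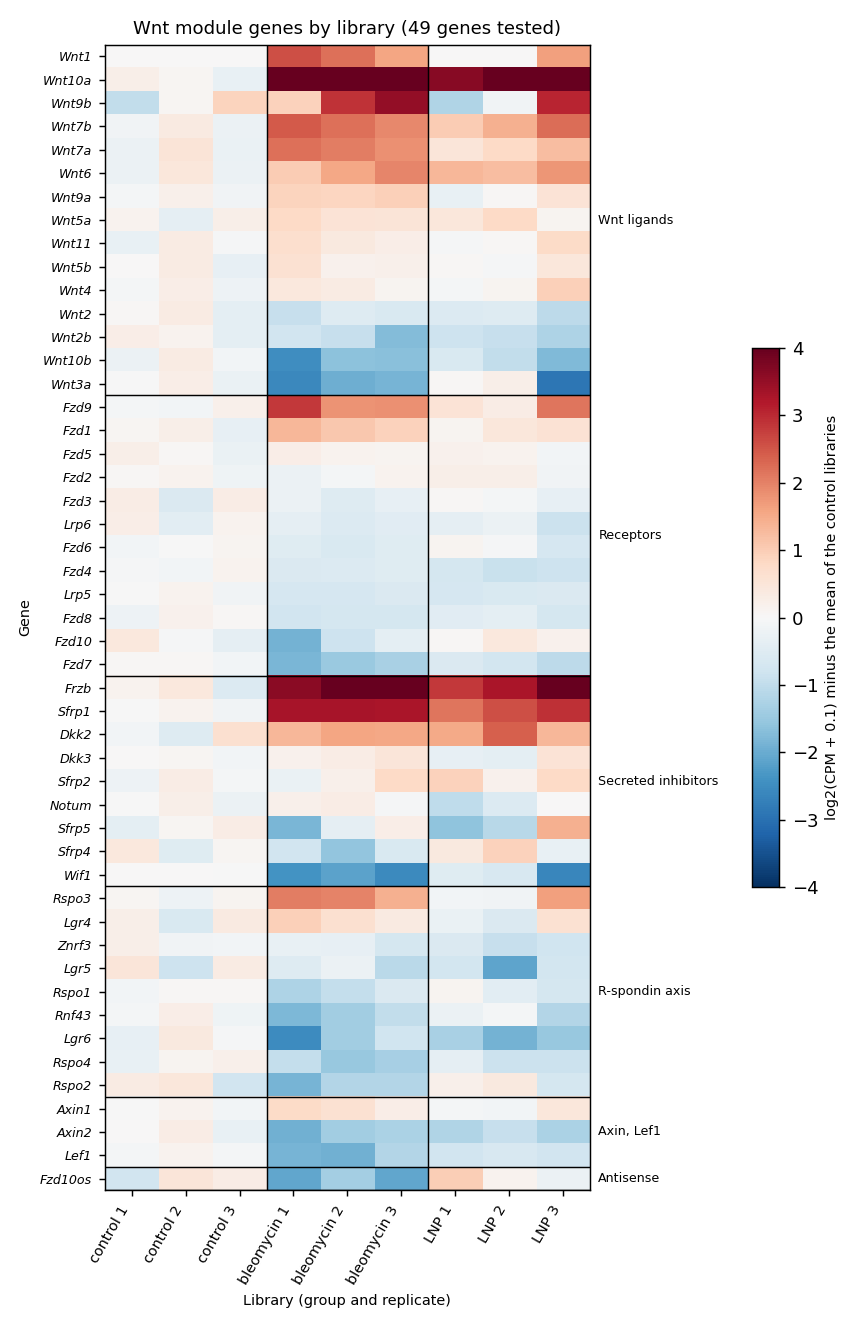
Level of the 49 tested Wnt genes in each of the 9 libraries, as log2(CPM + 0.1) minus the control mean (columns are libraries, rows are genes grouped by role, colour limited to a difference of 4 either way). Wnt10a, Frzb and Sfrp1 stand above control in all 3 bleomycin and all 3 LNP libraries, and Wnt3a and Wif1 are lower in the bleomycin libraries and LNP replicate 3 than in LNP replicates 1 and 2.

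**Figure D2:**
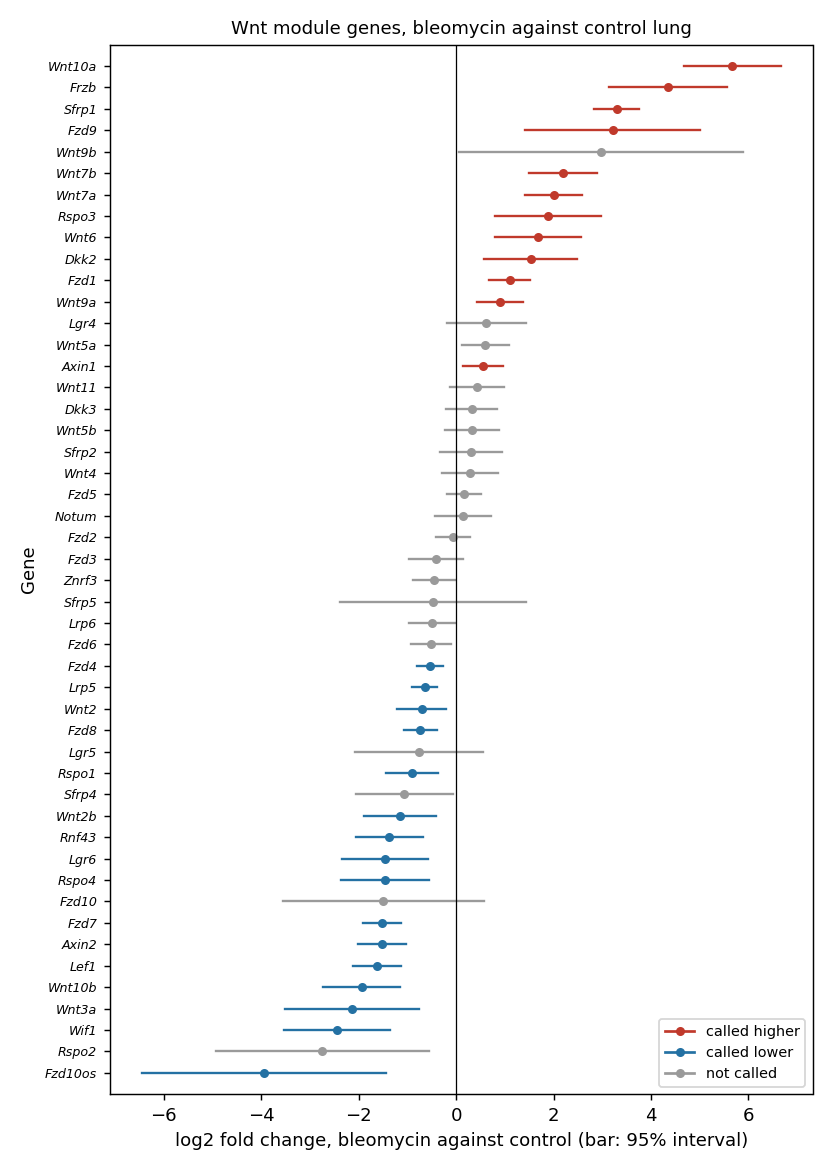
Log2 fold change of bleomycin against control for 48 tested Wnt genes (x axis), with the 95% interval of the fit as bars; colour gives the call at an adjusted p under 0.05. Wnt10a at 5.67 and Frzb at 4.35 lie farthest to the right, and Wnt1 is left out because its control libraries were all at 0.

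Among the ligands, 6 of the 15 tested were called higher and 4 lower. Wnt10a (chr1:74830675-74843338, plus strand; positions are those of the deposited table, for which no genome build is named) had the largest fold of the ligands seen in every group. Its levels were 0.147, 0.121 and 0.0715 CPM in control, 3.8, 6.22 and 7.45 CPM in bleomycin and 2.55, 3.65 and 4.76 CPM in LNP lungs. It was nearly silent in the saline lung and present in all 6 injured lungs, 51.0-fold higher with bleomycin (5.67 ± 0.44, adjusted p = 8.1e-05). Wnt10a is a ligand known from hair, teeth and skin.

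Wnt7b (chr15:85419638-85466022, minus strand), an epithelial ligand of the developing lung, was at 10, 14.3 and 9.44 CPM in control, 60.7, 50.8 and 42.5 CPM in bleomycin and 22.5, 29.6 and 52.4 CPM in LNP lungs. The bleomycin libraries did not overlap the controls, and the fold change was 2.19 ± 0.31 (4.56-fold, adjusted p = 0.00093). Its close relative Wnt7a (chr6:91340963-91388345, minus strand) was at 15.3, 26.0 and 15.0 CPM in control, 84.8, 76.0 and 64.4 CPM in bleomycin and 25.5, 31.4 and 42.6 CPM in LNP lungs. It was 4.00-fold higher with bleomycin (2.00 ± 0.26, adjusted p = 0.00065), and here the LNP libraries all lay below the bleomycin ones. Markers of alveolar type 1 cells, the flat epithelium of the gas exchange surface, were called in both directions (2 of 6 higher, 1 lower), with sums of 4016 to 5532 CPM in control and 4871 to 5430.1 CPM in bleomycin; none was at 0. Their part in the Wnt7 changes was not tested.

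The other risen ligands were smaller in fold or low in level. Wnt9a was at 13.0, 15.7 and 12.4 CPM in control, 25.2, 24.9 and 26.5 CPM in bleomycin and 11.1, 14.1 and 20.1 CPM in LNP lungs, and rose by 0.90 ± 0.21 (adjusted p = 0.01). The bleomycin values were tight and well clear of both other groups. Wnt6 was at 0.424, 0.742 and 0.429 CPM in control, 1.15, 1.68 and 2.31 CPM in bleomycin and 1.46, 1.34 and 2.0 CPM in LNP lungs (1.68 ± 0.39, adjusted p = 0.0099), low throughout and higher in every injured lung. Wnt1 was at 0 counts in all 3 saline lungs, at 30, 23 and 13 counts in bleomycin and 0, 0 and 12 in LNP lungs (adjusted p = 0.032); no fold is given for it, since in the deposited table low counts cluster at multiples of 4 (8316 values of 4 against 5195 of 3 and 4576 of 5) and may not be numbers of fragments.

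The fallen ligands were Wnt3a, Wnt10b, Wnt2 and Wnt2b. Wnt3a (chr11:59138859-59181578, minus strand), the classic activator of beta-catenin in culture, was at 21.6, 25.9 and 18.2 CPM in control and 3.51, 5.56 and 5.86 CPM in bleomycin lungs. In the LNP group it was at 22.5, 25.5 and 2.86 CPM, so that replicates 1 and 2 sat among the controls and replicate 3 under every bleomycin library. The bleomycin change was -2.14 ± 0.62 (4.40-fold lower, adjusted p = 0.025).

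Wnt10b, a ligand that holds back fat cell formation, was at 8.83, 12.9 and 9.58 CPM in control, 1.75, 3.23 and 3.17 CPM in bleomycin and 6.77, 5.12 and 2.96 CPM in LNP lungs. It fell by 1.94 ± 0.35 on the log2 scale (3.83-fold, adjusted p = 0.003), and 4 of 4 adipocyte markers fell as well, their sum going from 133 to 187 CPM in control to 2.52 to 22.8 CPM in bleomycin lungs; whether these cells took part was not tested. Wnt2, a ligand of the lung mesenchyme needed for lung specification, was at 21.2, 25.6 and 15.6 CPM in control, 10.8, 14.2 and 13.3 CPM in bleomycin and 14.0, 14.1 and 9.72 CPM in LNP lungs (-0.71 ± 0.22, adjusted p = 0.036). Wnt2b, which acts with Wnt2, was at 4.47, 4.1 and 2.82 CPM in control, 2.15, 1.92 and 1.06 CPM in bleomycin and 2.05, 1.91 and 1.53 CPM in LNP lungs (-1.15 ± 0.33, adjusted p = 0.024). Both were lower in each bleomycin library than in each control library, by a smaller margin than Wnt3a and Wnt10b.

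The alveolar type 2 markers, which include surfactant genes, were low in the libraries where Wnt3a was low: they summed to 25870.1 to 34408 CPM in control, 10436 to 11764 CPM in bleomycin and 25994, 23246 and 8919 CPM in LNP replicates 1, 2 and 3, with 5 of 6 markers called lower in bleomycin and none at 0. Alveolar fibroblast markers, of the stromal cells in which Wnt2 is known, summed to 4485 to 5441 CPM in control, 1487 to 1758 CPM in bleomycin and 1535 to 2322 CPM in LNP lungs, with 6 of 7 called lower and none at 0. Their part in the fall of Wnt3a and Wnt2 was not tested.

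The 5 tested ligands that were not called were Wnt4, Wnt5a, Wnt5b, Wnt9b and Wnt11. Wnt5a, which signals largely without beta-catenin, ranged from 11.2 to 24.8 CPM, with a bleomycin difference of 0.60 (95% interval 0.13 to 1.08, adjusted p = 0.053). Wnt4 ranged from 18.7 to 41.0 CPM (difference 0.29, interval -0.28 to 0.86) and Wnt11 from 15.0 to 31.4 CPM (0.43, interval -0.12 to 0.98). Wnt5b ranged from 3.89 to 7.5 CPM, with a difference of 0.32; its gene overlaps Fbxl14 on the other strand, which averaged 40.2 CPM in control, and the counting is not stated to use strand. Wnt9b varied most within groups: it was at 0.508, 2.28 and 3.64 CPM in the bleomycin libraries and at 0.0653, 0.242 and 0.5 CPM in control (adjusted p = 0.11).

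Measured per length, the mix of ligands in the lung changed more than its sum. The FPKM of all 19 ligands summed to 43.2 ± 6.31 (SD, n = 3) in control, 62.9 ± 1.69 in bleomycin and 52.4 ± 6.14 in LNP lungs. In the control lung the largest shares of that sum were those of Wnt2 at 19.5% ± 2.06 and Wnt3a at 16.8% ± 0.738, with Wnt7a at 12.3% ± 1.79. In the bleomycin lung Wnt7a led with 32.9% ± 2.34, followed by Wnt7b at 14.5% ± 1.63, while Wnt2 held 7.92% ± 1.43 and Wnt3a 2.54% ± 0.779. In LNP replicates 1, 2 and 3 Wnt7a held 16.8%, 18.0% and 21.6%, and Wnt3a held 16.9%, 16.8% and 1.66%, so that both were level in replicates 1 and 2 and far apart in replicate 3.

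Several ligand genes are neighbours on the chromosome, and neighbours did not always move together. Wnt6 and Wnt10a, 6.2 kb apart on the same strand of chromosome 1, both rose. Wnt3a and Wnt9a point away from each other 16.2 kb apart on chromosome 11, and Wnt3a fell while Wnt9a rose. Wnt10b and Wnt1, likewise divergent and 11.7 kb apart on chromosome 15, also went in opposite directions.

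**Figure D3:**
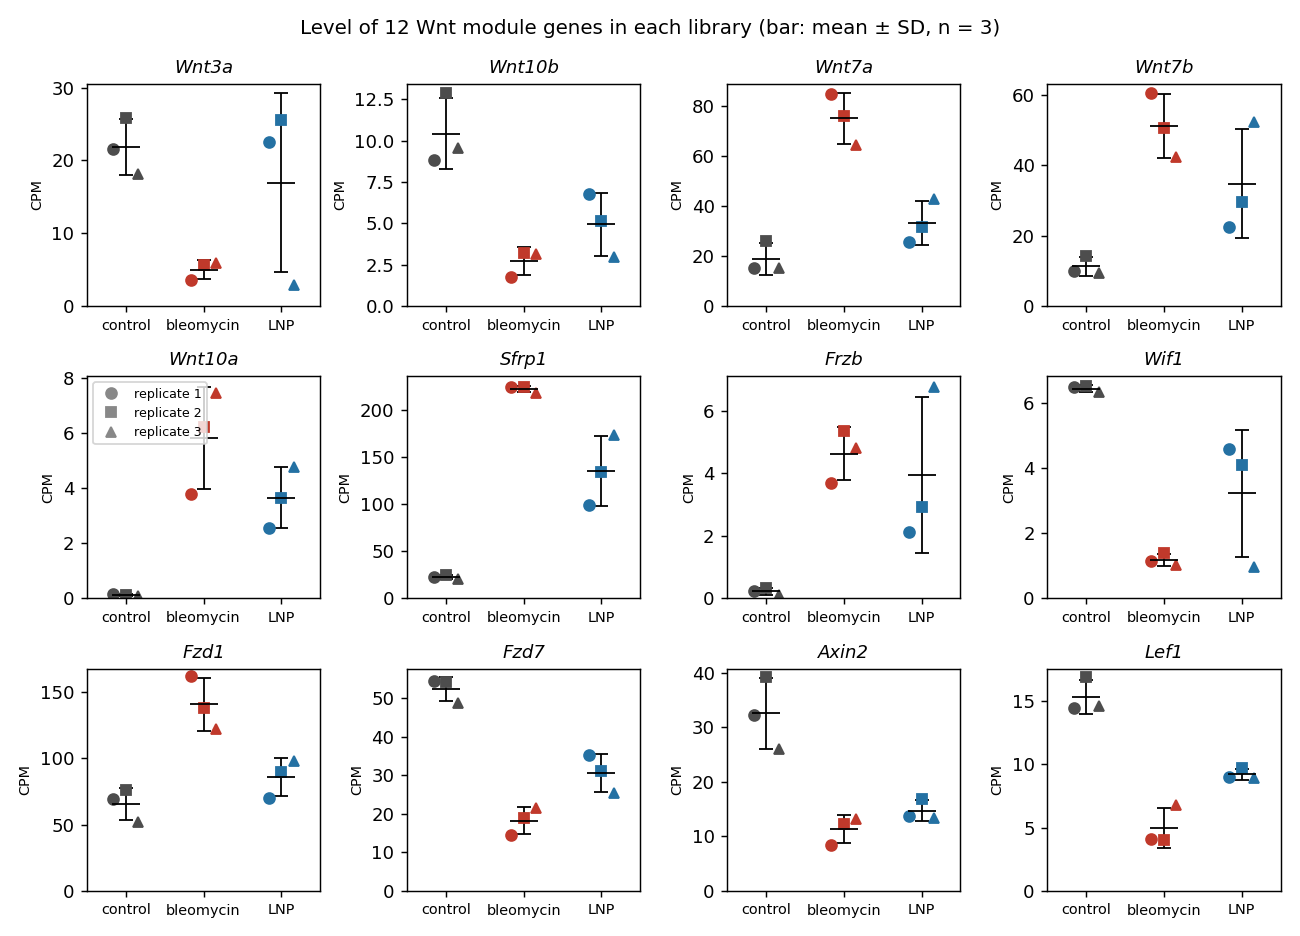
CPM of 12 Wnt genes in each library (points), with the mean and SD of each group of 3 (bars). For Wnt3a and Wif1 the lowest point of the LNP group is replicate 3, and for Sfrp1 the LNP libraries, at 98.9, 134 and 173 CPM, lie between the control libraries and the bleomycin ones.

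All 12 receptors were tested; 2 rose and 4 fell with bleomycin. Fzd1 (chr5:4803839-4808035, minus strand) was at 69.1, 75.8 and 52.0 CPM in control, 162, 138 and 122 CPM in bleomycin and 70.0, 89.4 and 97.8 CPM in LNP lungs. The bleomycin libraries stood above all others (1.10 ± 0.19, 2.14-fold, adjusted p = 0.0022). Fzd9, also higher, stayed at or under 1.13 CPM: 0.0653, 0.0605 and 0.1 CPM in control, 1.13, 0.512 and 0.514 CPM in bleomycin and 0.153, 0.115 and 0.662 CPM in LNP lungs (3.22 ± 0.81, adjusted p = 0.013).

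Fzd7 (chr1:59521583-59526114, plus strand), a frizzled linked to stem and progenitor cells, was at 54.4, 54.2 and 48.7 CPM in control, 14.6, 18.8 and 21.4 CPM in bleomycin and 35.2, 31.1 and 25.5 CPM in LNP lungs. The 3 groups did not overlap, with LNP between the others, and Fzd7 fell by 1.52 ± 0.18 with bleomycin (2.87-fold, adjusted p = 0.00039). Fzd4, a receptor known from retinal vessels that also binds norrin, was at 165, 158 and 188 CPM in control, 114, 117 and 122 CPM in bleomycin and 105, 91.1 and 94.9 CPM in LNP lungs (-0.54 ± 0.12, adjusted p = 0.0075). Endothelial markers fell in the same direction, 4 of 5 called, from sums of 3588 to 4183 CPM to 1943 to 2429 CPM, with none at 0; their part was not tested.

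Fzd8 was at 22.0, 28.7 and 26.4 CPM in control, 15.0, 15.6 and 15.8 CPM in bleomycin and 18.8, 19.5 and 15.8 CPM in LNP lungs (-0.73 ± 0.15, adjusted p = 0.0051). The co-receptor Lrp5 was at 195, 217 and 179 CPM in control, 124, 123 and 130.4 CPM in bleomycin and 123, 128 and 131 CPM in LNP lungs (-0.65 ± 0.12, adjusted p = 0.0027), so that the bleomycin and LNP libraries occupied the same range. Its partner Lrp6 ranged from 52.4 to 116 CPM and was not called (-0.49, 95% interval -0.96 to -0.03, adjusted p = 0.095).

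Of the receptors that were not called, Fzd2 ranged from 35.6 to 49.7 CPM, Fzd5 from 19.7 to 28.8, Fzd6 from 32.8 to 56.3, Fzd3 from 6.13 to 11.3 and Fzd10 up to 0.393 CPM. Fzd6 just missed the threshold, with every bleomycin library below every control library (-0.52, adjusted p = 0.054). It was called lower in the fit without LNP replicate 3 (adjusted p = 0.0052). Summed frizzled FPKM was 76.9 ± 1.64 (SD, n = 3) in control, 71.1 ± 1.29 in bleomycin and 68.0 ± 4.34 in LNP lungs. Within that sum the leading receptor switched: Fzd4 held 30.4% ± 3.7 and Fzd1 18.6% ± 3.02 in control, whereas Fzd1 held 41.3% ± 4.62 and Fzd4 21.6% ± 1.26 in bleomycin lungs. Fzd7 went from 13.9% ± 0.552 to 5.0% ± 1.09, and stood at 9.43% ± 1.13 in LNP lungs.

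Of the 9 tested secreted inhibitors, 3 rose and 1 fell. Sfrp1 (chr8:23901518-23939648, plus strand), which binds Wnt ligands through a frizzled-like domain, was at 22.3, 25.0 and 20.6 CPM in control, 224, 224 and 218 CPM in bleomycin and 98.9, 134 and 173 CPM in LNP lungs. The bleomycin libraries were nearly identical and 9.81-fold above control (3.29 ± 0.20, adjusted p = 3.1e-05). Per length, Sfrp1 went from 4.75 ± 0.278 to 44.6 ± 1.62 FPKM, and averaged 29.5 ± 7.79 FPKM in LNP lungs.

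Frzb, a relative of Sfrp1 known from cartilage (chr2:80242314-80277969, minus strand), was at 0.245, 0.318 and 0.114 CPM in control, 3.7, 5.37 and 4.82 CPM in bleomycin and 2.14, 2.93 and 6.78 CPM in LNP lungs. It was barely detected in saline lungs and rose by 4.35 ± 0.54 (20.4-fold, adjusted p = 0.00052). The Lrp-binding inhibitor Dkk2 was at 0.604, 0.424 and 1.07 CPM in control, 1.8, 2.14 and 2.13 CPM in bleomycin and 2.05, 3.88 and 1.79 CPM in LNP lungs (1.53 ± 0.42, adjusted p = 0.021), higher in all 6 injured lungs.

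The lone fallen inhibitor was Wif1 (chr10:120869865-120936555, plus strand), a ligand-binding protein of the lung mesenchyme and epithelium. It was at 6.48, 6.51 and 6.32 CPM in control, 1.15, 1.38 and 1.01 CPM in bleomycin and 4.59, 4.09 and 0.976 CPM in LNP lungs. Control and bleomycin values were tight and far apart (5.45-fold lower, SE 0.48 on the log2 scale, adjusted p = 0.0046), and LNP replicate 3 lay below the bleomycin libraries, as for Wnt3a. Dkk3, placed with the inhibitors by its name only, was the most abundant of that group per length in control lungs at 32.9 FPKM. It ranged from 91.9 to 177 CPM and was not called (0.32, 95% interval -0.20 to 0.85). Sfrp2 ranged from 12.8 to 29.2 CPM, Notum from 5.79 to 14.4, Sfrp4 from 0.45 to 3.06 and Sfrp5 from 0.246 to 3.19 CPM, none of them called.

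Activated fibroblast markers, of matrix-producing cells of the scarring lung, changed in the direction of Sfrp1 and Frzb: 5 of 6 were called higher, with sums of 741 to 829 CPM in control, 3851 to 4023 CPM in bleomycin and 1668, 1901 and 2752 CPM in LNP replicates 1 to 3, and none was at 0. Their part in the rise of the inhibitors was not tested.

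Promoter windows were taken from a RefSeq set (assembly GRCm38.p6). Among the called genes of largest change with at least 1 CPM in the higher group, it held Frzb and Wif1. Their promoter sequences are shown, with those of Axin2 and Lef1, which were added after their values were seen. They were read for the core site of the TCF/LEF factors, CTTTGA or its reverse complement TCAAAG, in the 250 bases before and 50 bases after the start of transcription; matches are in capitals. The windows are chr2:80447347-80447646 (minus strand) for Frzb, chr10:121033754-121034053 (plus) for Wif1, chr11:108920099-108920398 (plus) for Axin2 and chr3:131156044-131156343 (plus) for Lef1, which has 4 listed starts, of which the window with the most matches is printed.
Frzb: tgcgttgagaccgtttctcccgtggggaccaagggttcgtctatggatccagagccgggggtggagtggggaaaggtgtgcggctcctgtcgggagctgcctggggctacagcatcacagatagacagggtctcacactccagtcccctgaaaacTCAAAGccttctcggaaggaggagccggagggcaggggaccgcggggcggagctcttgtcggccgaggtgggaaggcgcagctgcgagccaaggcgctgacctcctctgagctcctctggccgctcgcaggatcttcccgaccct
Wif1: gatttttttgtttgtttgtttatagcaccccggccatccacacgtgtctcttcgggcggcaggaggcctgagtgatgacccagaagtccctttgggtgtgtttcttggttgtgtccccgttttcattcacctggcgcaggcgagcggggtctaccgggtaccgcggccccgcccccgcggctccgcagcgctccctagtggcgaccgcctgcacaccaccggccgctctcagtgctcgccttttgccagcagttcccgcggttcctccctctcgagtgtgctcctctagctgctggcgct
Axin2: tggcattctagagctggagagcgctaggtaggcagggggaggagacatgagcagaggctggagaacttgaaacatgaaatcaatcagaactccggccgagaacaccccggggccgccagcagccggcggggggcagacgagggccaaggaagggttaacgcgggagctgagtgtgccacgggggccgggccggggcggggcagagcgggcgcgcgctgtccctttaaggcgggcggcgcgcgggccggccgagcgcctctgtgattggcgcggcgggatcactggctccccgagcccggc
Lef1: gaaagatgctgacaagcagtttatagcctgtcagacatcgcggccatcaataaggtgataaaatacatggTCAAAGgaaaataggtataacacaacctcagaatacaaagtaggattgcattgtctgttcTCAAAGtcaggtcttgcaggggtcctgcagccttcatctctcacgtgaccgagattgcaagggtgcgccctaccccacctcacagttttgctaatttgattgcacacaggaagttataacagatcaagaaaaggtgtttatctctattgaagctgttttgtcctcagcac
Frzb has 1 match, Lef1 has 2, and Wif1 and Axin2 have none in these windows. Of 32851 promoter windows of this length 5257 hold the site, and so do 6 of 41 windows of Wnt genes (14.6%). Counted by gene, 6 of the 34 Wnt genes with a window have the site (17.6%). That share has no count by gene over all genes to set beside it. By the call in bleomycin lungs, 2 of 8 higher genes, 1 of 13 lower genes and 2 of 9 genes not called have the site. These counts are too small to show or exclude a difference between the directions. Wnt10a and Sfrp1 have no entry in the promoter set used, so their promoters were not read.

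In the R-spondin axis 1 of 9 genes rose and 4 fell. Rspo3, an R-spondin of vessels and stroma, was at 1.81, 1.47 and 1.87 CPM in control, 7.31, 7.03 and 4.7 CPM in bleomycin and 1.58, 1.54 and 5.56 CPM in LNP lungs. It rose 3.69-fold (1.88 ± 0.49, adjusted p = 0.015), and LNP replicates 1 and 2 were at control level while replicate 3 was among the bleomycin libraries. Rspo1 moved the other way, from 16.5, 18.5 and 18.3 CPM in control to 7.42, 9.09 and 11.9 CPM in bleomycin, with 19.3, 13.1 and 10.9 CPM in LNP lungs (-0.91 ± 0.24, adjusted p = 0.018). Rspo4 was low, at 0.767, 1.06 and 1.13 CPM in control, 0.459, 0.279 and 0.332 CPM in bleomycin and 0.736, 0.491 and 0.488 CPM in LNP lungs (-1.46 ± 0.41, adjusted p = 0.022), and its gene overlaps Rspo4os on the other strand. Thus the ligands of this axis split, with Rspo3 higher and the others lower or not called.

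Lgr6, an R-spondin receptor of airway smooth muscle and other stroma, was at 12, 20 and 14.6 CPM in control, 2.57, 5.71 and 8.71 CPM in bleomycin and 6.09, 4.03 and 5.26 CPM in LNP lungs (-1.46 ± 0.39, adjusted p = 0.019). All injured lungs were below all saline lungs. Rnf43, the ubiquitin ligase that removes frizzleds and is itself a beta-catenin target, was at 15.5, 19.5 and 14.5 CPM in control, 4.67, 6.21 and 8.21 CPM in bleomycin and 13.8, 15.6 and 7.16 CPM in LNP lungs (-1.37 ± 0.31, adjusted p = 0.0083). Again LNP replicates 1 and 2 were near the controls and replicate 3 among the bleomycin values. Its paralog Znrf3 was at 14.8, 11.2 and 11.6 CPM in control, 10.1, 9.93 and 7.59 CPM in bleomycin and 8.22, 6.55 and 7.14 CPM in LNP lungs, and was not called with bleomycin (-0.45, adjusted p = 0.1). Lgr4 ranged from 2.92 to 8.7 CPM, Lgr5 from 0.131 to 1.31 CPM and Rspo2 up to 0.394 CPM without a call, Rspo2 at an adjusted p of 0.054.

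Axin2, the standard transcriptional readout of beta-catenin (chr11:108811175-108841609, plus strand), was at 32.3, 39.2 and 26.1 CPM in control, 8.34, 12.3 and 13.2 CPM in bleomycin and 13.8, 16.9 and 13.4 CPM in LNP lungs. Every injured lung was below every saline lung, and the bleomycin change was -1.52 ± 0.22 (2.88-fold lower, adjusted p = 0.00098). Lef1, the nuclear partner of beta-catenin (chr3:130904120-131018005, plus strand), was at 14.5, 16.9 and 14.6 CPM in control, 4.11, 4.0 and 6.8 CPM in bleomycin and 9.01, 9.71 and 8.95 CPM in LNP lungs. The 3 groups did not overlap, with LNP in the middle, and the bleomycin change was -1.62 ± 0.22 (3.08-fold lower, adjusted p = 0.00081). Axin1, the constitutive scaffold of the destruction complex, was at 57.9, 65.2 and 54.8 CPM in control, 100, 90.8 and 71.2 CPM in bleomycin and 55.9, 54.5 and 80.3 CPM in LNP lungs (0.56 ± 0.18, adjusted p = 0.042).

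T cells also express Lef1, and their markers fell with it in bleomycin, where 8 of 9 were called lower. They summed to 71.9 to 81.4 CPM in control and 25.5 to 28.5 CPM in bleomycin, and none was at 0. In LNP lungs the markers and Lef1 parted. The markers summed to 81.1 to 100.3 CPM there, and none was called against control. Lef1, at 8.95 to 9.71 CPM, lay below every saline library but was not called (adjusted p = 0.072). The alveolar fibroblast markers given with Wnt2 moved with Axin2. Their part in the Lef1 and Axin2 changes was not tested.

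The antisense gene Fzd10os, which lies 139 bases from Fzd10 on the other strand, was at 0.147, 0.484 and 0.415 CPM in control, 0, 0.0621 and 0 CPM in bleomycin and 0.736, 0.36 and 0.261 CPM in LNP lungs (-3.95 ± 1.12, adjusted p = 0.023). Fzd10 itself was at 0.392, 0.257 and 0.186 CPM in control and 0, 0.109 and 0.181 CPM in bleomycin lungs and was not called. Both were so low that the difference rests on few counts.

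Of the 29 Wnt genes called with bleomycin, 17 passed every one of 9 fits that each left out 1 library, and none changed direction. The others lost the call in some of these fits. Axin1 lost it without any one control library or without bleomycin replicate 1 or 2 (adjusted p 0.053 to 0.15). Wnt3a and Wnt2 lost it without control replicate 1 or 2 or any one bleomycin library (0.056 to 0.095 and 0.071 to 0.13), and Wnt1 without any one control or bleomycin library (0.056 to 0.091). Wnt2b lost it without control replicate 1 or 2 or bleomycin replicate 2 or 3 (0.058 to 0.083), as did Dkk2 (0.05 to 0.074). Fzd10os lost it without control replicate 2 or 3 or bleomycin replicate 1 or 3 (0.064 to 0.076). Rspo1 lost it without control replicate 3 or bleomycin replicate 1 or 2 (0.053 to 0.071), and Rspo4 without control replicate 3 or bleomycin replicate 2 or 3 (0.059 to 0.084). Fzd9 and Rspo3 lost it without bleomycin replicate 1 (0.059 and 0.051), Fzd9 also without control replicate 1 (0.052) and Rspo3 without control replicate 2 (0.054). Lgr6 lost it without replicate 2 of control or of bleomycin (0.066 and 0.063). All libraries enter the same fit, so LNP libraries also count in the spread used here. Without LNP replicate 3 the Wnt3a change in bleomycin was -2.10 ± 0.22 (adjusted p = 5.8e-05), where the main SE was 0.62. For Wif1 it was -2.41 ± 0.20 (adjusted p = 1.6e-05), where the main SE was 0.48.

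Genes of the pathway outside these families were read from 4 lists, of Wnt secretion, co-receptors and polarity, transduction, and beta-catenin targets. Of their 64 tested genes 9 rose and 17 fell with bleomycin (40.6% called, against 33.7% of all genes). Wls, the carrier that brings Wnt ligands to the cell surface, averaged 185 ± 9.29 CPM (SD, n = 3) in control, 282 ± 15.5 in bleomycin and 203 ± 10.1 in LNP lungs. It was the 1 called gene among the 5 of secretion (0.61 ± 0.11, adjusted p = 0.0034). Among 23 co-receptor and polarity genes 3 rose and 6 fell. Prickle1, a planar polarity protein, fell by 1.97 (adjusted p = 0.00019) and Reck, a cofactor for Wnt7 ligands, by 1.99 (adjusted p = 0.00029), with Reck at 83.1, 90.7 and 71.9 CPM in control, 17.5, 21.2 and 23.1 CPM in bleomycin and 32.3, 29.4 and 18.6 CPM in LNP lungs. Reck thus fell in the lungs in which Wnt7a and Wnt7b rose. Prickle2 fell by 0.88 (adjusted p = 0.0051), and the glypican Gpc4 rose by 1.17 (adjusted p = 0.0061).

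In the transduction list 1 of 25 genes rose and 7 fell, near the share of all genes tested, of which 33.7% were called. The risen gene was Ctnnbip1, which keeps beta-catenin from its nuclear partners (1.05 ± 0.18, adjusted p = 0.0023), and the fallen ones included Tcf7, a relative of Lef1 (-0.93, adjusted p = 0.0014), the corepressor Tle2 (-1.46, adjusted p = 0.0021) and the coactivator Bcl9 (-0.60, adjusted p = 0.01). The 12 beta-catenin target genes, of which 11 were tested, did not move as 1 group: 4 rose and 4 fell. Ccn4 went from 4.29, 3.44 and 3.32 CPM in control to 70.9, 54.8 and 37.2 CPM in bleomycin, with 11.7, 17.3 and 25.0 CPM in LNP lungs (3.88 ± 0.33, adjusted p = 0.00012). Myc rose by 3.54 (adjusted p = 0.00071) and Cd44 by 1.23 (adjusted p = 0.0005), both of which many other signals also induce, whereas Tnfrsf19 fell by 1.66 (adjusted p = 0.00087). The fallen Axin2, Lef1 and Rnf43 thus stood beside targets that rose as well as targets that fell.

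The second comparison asked how lungs given the LNP after bleomycin differed from those given bleomycin alone. With all 9 libraries, 2 Wnt genes were called higher and 1 lower, and 46 were not called. That is 6.12% of the tested Wnt genes, close to the 6.16% of all genes tested (4.28% higher and 1.87% lower). Fzd7 was 1.68-fold higher than in bleomycin (0.74 ± 0.17, adjusted p = 0.038), Lef1 1.85-fold higher (0.89 ± 0.22, adjusted p = 0.046) and Wnt7a 2.26-fold lower (-1.18 ± 0.25, adjusted p = 0.029). In each the LNP libraries did not overlap the bleomycin libraries and lay toward the controls. The first comparison uses the same bleomycin libraries, so this direction is not separate evidence. The 3 LNP libraries lay wholly above the 3 bleomycin libraries for 9 Wnt genes and wholly below for 5, and groups failed to overlap for 29.9% of all genes tested.

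All 3 calls depended on single libraries. Fzd7 lost its call without control replicate 1 or 3, bleomycin replicate 1 or 2 or LNP replicate 1 or 2 (adjusted p 0.066 to 0.14). Lef1 lost it in the same fits and without control replicate 2 (0.055 to 0.18), and Wnt7a without bleomycin or LNP replicate 1 or 2 (0.096 to 0.11). Sfrp1 just missed the threshold (-0.71 ± 0.19, adjusted p = 0.053), as was Fzd1 (-0.71, adjusted p = 0.052).

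The number of calls in this comparison turned on LNP replicate 3. Without it, 10 Wnt genes were called higher and 13 lower among 50 tested (46%), against 24.7% of the 21373 genes then tested. Those with the smallest adjusted p were Wnt3a, 4.82-fold higher (2.27 ± 0.23, adjusted p = 0.00018), Wif1, 3.69-fold higher (1.88 ± 0.21, adjusted p = 0.00033), and Rspo3, at -2.02 ± 0.28 (adjusted p = 0.00083). With replicate 3 the same differences had adjusted p values of 0.11 for Wnt3a and 0.096 for Wif1. The other genes called higher without it were Fzd6, Fzd7, Fzd10os, Lef1, Rnf43, Rspo1, Sfrp4 and Wnt10b. The other genes called lower were Axin1, Dkk3, Fzd1, Fzd9, Lgr4, Notum, Sfrp1, Wnt1, Wnt7a, Wnt7b, Wnt9a and Wnt9b, with Sfrp1 at -0.93 ± 0.15 (adjusted p = 0.0019), Wnt9a at -1.02 ± 0.17 (adjusted p = 0.0022) and Wnt7b at -0.97 ± 0.22 (adjusted p = 0.012). Axin2 was not among them.

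**Figure D4:**
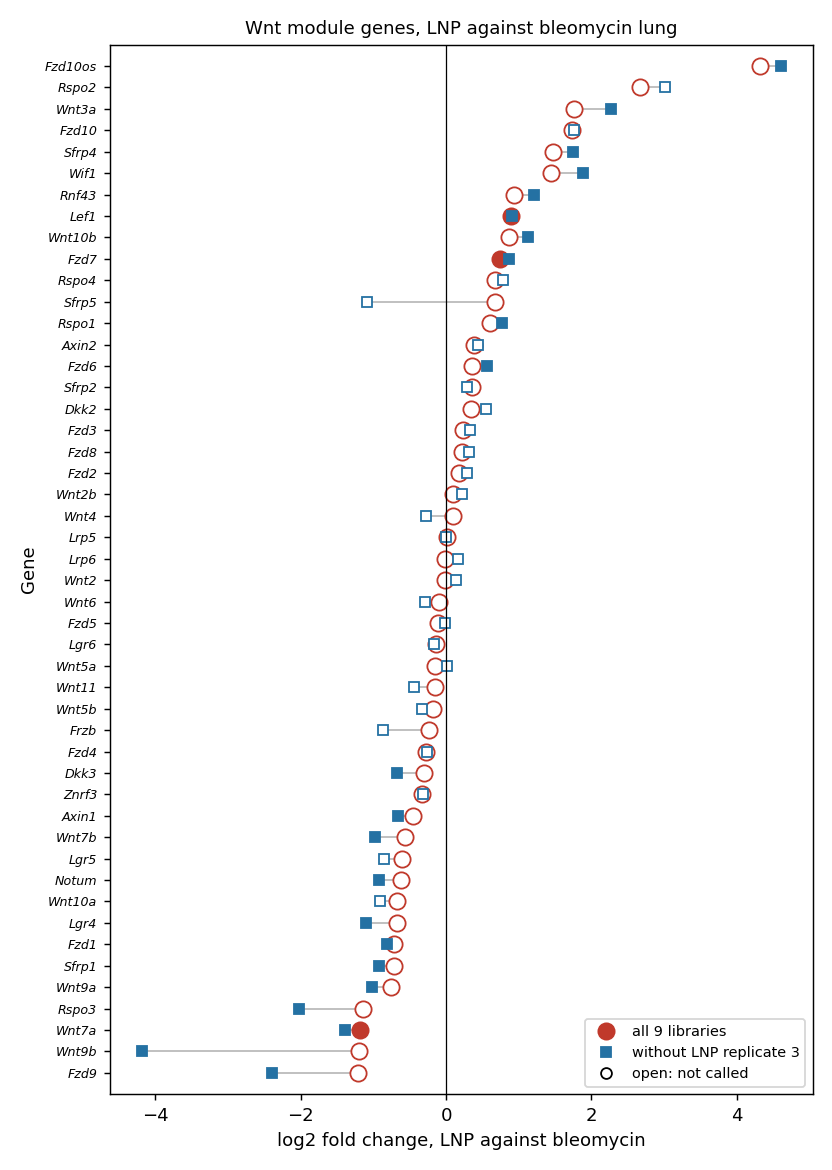
Log2 fold change of LNP against bleomycin for 48 Wnt genes (x axis), from all 9 libraries (red circles) and without LNP replicate 3 (blue squares); filled symbols were called at an adjusted p under 0.05. Wnt3a, Wif1 and Rspo3 move outward and become filled without replicate 3, and Wnt1, whose control libraries were all at 0, is left out.

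The place of each LNP library shows the same split. For the 29 genes called with bleomycin, LNP replicate 1 lay within or beyond the control range for 9 genes, between the groups for 13 and within or beyond the bleomycin range for 7. For replicate 2 these counts were 7, 15 and 7, and for replicate 3 they were 1, 10 and 18. Over the 6928 genes that were called with bleomycin and whose groups did not overlap, the share on the bleomycin side was 13%, 16.6% and 41.8% in replicates 1, 2 and 3. In the same order the share on the control side was 33.7%, 28.2% and 12.6%, and that between the groups 53.3%, 55.2% and 45.6%. Replicate 3 thus stood nearer the bleomycin lungs over all such genes, not in the Wnt genes alone. The muscle and squamous markers given above are high in this library, and their part in its Wnt values was not tested.

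By edgeR's test the pathway lists had 0 genes higher and 4 lower in LNP against bleomycin among 64 tested. At an unadjusted p under 0.05 of that test the counts were 6 and 9, without a share over all genes to set beside them. DESeq2 called 9 list genes, and among all genes it called 1930 higher and 1081 lower. The 4 are 6.25% of the list genes, close to the 6.16% of all genes tested, so the count says nothing particular of the lists. They were Wls (-0.47 ± 0.11, adjusted p = 0.041), the corepressor Tle1 (-0.67, adjusted p = 0.023), Ccn4 (-1.60 ± 0.30, adjusted p = 0.019) and Cd44 (-0.60, adjusted p = 0.046). Without LNP replicate 3 the counts were 7 higher and 10 lower among 65 (26.2%, near the 24.7% of all genes).

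The third comparison set the LNP lungs against the saline lungs; it shares the LNP libraries with the second and the control libraries with the first, so its values stand beside theirs and are not separate evidence. Of the Wnt genes 6 were higher and 6 lower (24.5%, against 8.04% of all genes tested, 4.95% higher and 3.08% lower). The higher genes were Wnt10a (5.00 ± 0.43, 32.0-fold, adjusted p = 0.00038), Frzb (4.12 ± 0.54, adjusted p = 0.0026), Sfrp1 (2.58 ± 0.20, 5.98-fold, adjusted p = 0.0002), Dkk2 (1.87 ± 0.43, adjusted p = 0.026), Wnt7b (1.63 ± 0.31, adjusted p = 0.011) and Wnt6 (1.59 ± 0.39, adjusted p = 0.037). All 6 were also higher in bleomycin. The lower genes were Axin2 (-1.14 ± 0.22, adjusted p = 0.012), Fzd4 (-0.81 ± 0.12, adjusted p = 0.0041), Lrp5 (-0.63 ± 0.12, adjusted p = 0.01), Fzd7 (-0.78 ± 0.17, adjusted p = 0.024), Lgr6 (-1.60 ± 0.40, adjusted p = 0.037) and Znrf3 (-0.78 ± 0.19, adjusted p = 0.037). Znrf3 alone of these was not called in bleomycin. LNP and saline libraries did not overlap for 7 Wnt genes that were higher and 13 that were lower (of all genes tested, 13.7% and 15.2%).

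Of the pathway list genes 4 were higher and 8 lower than in saline lungs among 64 tested (18.8%). In the polarity list these were Prickle1 (-1.48 ± 0.19, adjusted p = 0.0024), Reck (-1.61 ± 0.21, adjusted p = 0.0028), Prickle2 (-0.85 ± 0.18, adjusted p = 0.019) and the secreted Lrp inhibitor Sost (adjusted p = 0.04). Sost was at 3.87, 2.65 and 2.8 CPM in control and 0.153, 0.246 and 0.0697 CPM in LNP lungs, and at 0 only in bleomycin replicate 1. Ctnnbip1 was higher (0.76 ± 0.18, adjusted p = 0.03) and Tle2 lower (-0.92 ± 0.24, adjusted p = 0.047) in the transduction list. The beta-catenin targets again split, with Ccn4 (2.29 ± 0.31, adjusted p = 0.0031) and Myc (2.12 ± 0.45, adjusted p = 0.019) among the 3 higher and the Dishevelled inhibitors Nkd2 (-1.11 ± 0.20, adjusted p = 0.0091) and Nkd1 (-0.87 ± 0.16, adjusted p = 0.0093) among the 3 lower.

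Axin2, Frzb, Fzd4, Lrp5, Sfrp1 and Wnt10a passed every fit that left out 1 library. Wnt7b lost its call without control replicate 1 or 3 (adjusted p 0.061 and 0.059). Wnt6 lost it in these fits and also without bleomycin replicate 2 or LNP replicate 1 or 2 (0.059 to 0.14). Dkk2 lost it without control replicate 1 or 2, bleomycin replicate 2 or LNP replicate 2 (0.053 to 0.11), and Fzd7 in these fits and without control replicate 3 (0.054 to 0.092). Lgr6 lost it without any one control or LNP library or bleomycin replicate 2 (0.052 to 0.11). Znrf3 lost it without control replicate 1 or 3, bleomycin replicate 1 or 2 or any one LNP library (0.051 to 0.15). Without LNP replicate 3 the counts were 6 higher and 5 lower among 50 (22%, against 10.9% of all genes).

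Most Wnt genes were counted on a single transcript: 38 of the 49 tested had 1 transcript with over 90% of their counts, and 10 had 2 or more with at least 10%. Of the called genes among these 10, Rnf43 had a transcript, ENSMUST00000092800, that held 24.3%, 52.6% and 51.5% of the gene's counts in the saline lungs, 92.6%, 86.0% and 84.5% after bleomycin and 91.6%, 93.3% and 0% with the LNP. A second transcript, ENSMUST00000165679, held 67.4%, 37.7% and 40.6% in control, none in bleomycin, and 0%, 0% and 88.8% in LNP lungs. The transcript shares of LNP replicates 1 and 2 were thus those of the bleomycin lungs, although their Rnf43 levels were near control, and replicate 3 had the reverse. In the other called genes the shares varied within groups: the top Wnt7b transcript, ENSMUST00000023015, held 44.1%, 46.7% and 9.24% in the saline lungs, 50.4%, 43.6% and 59.4% after bleomycin and 51.2%, 73.5% and 69.6% with the LNP. In Znrf3 the top transcript, ENSMUST00000109867, held 70.7% to 100% in the 9 libraries. That of Fzd10os, ENSMUST00000154305, held 31.2% to 100% in the 7 libraries with counts. Wnt10b's top transcript, ENSMUST00000228546, held 59.0% to 80.6% and that of Axin1, ENSMUST00000074370, held 79.2% to 91.7% in the 9 libraries. These shares are estimates by the authors' transcript assembly and have no test here.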

How the data were processed

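RNA of whole lung from 3 control, 3 bleomycin and 3 LNP libraries was analysed. The Wnt genes and the lists were chosen with earlier results of these data known. The authors deposited raw counts and FPKM values per gene and per transcript; fastp, StringTie and edgeR were used, per the submitters' processing notes, while no aligner, genome build or strand setting is named in the labels or file headers. How the deposited count values were derived is not given either: counts of 4, 8 and 12 are more frequent than their neighbours. FPKM values are as the authors deposited them.

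The counts were scaled by TMM, genes were kept by edgeR's filterByExpr, and 1 quasi-likelihood fit over all 9 libraries gave the 3 comparisons, with Benjamini-Hochberg adjustment over 20794 genes (edgeR 4.0.16, limma 3.58.1, R 4.3.3); 11877 genes were left out as too low. CPM uses the scaled totals. Alternatives were DESeq2 1.42.0, other scalings, no count filter, fits on the 2 groups compared, limma on log2(FPKM + 1) or log2(FPKM + 0.1), a replicate block and leaving out each library. Library totals ranged from 56047830 to 69404903 counts. The fit was also run on simulated data with an equal spread for all genes and no outlying library. That setting differs from these data, so it does not show how the fit behaves with LNP replicate 3.

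Values in every library are given for each gene called in at least 1 comparison and ranges for the other tested genes; of each pathway list up to 4 called genes with the smallest p are named, and for called genes the transcript with the largest share where 2 or more hold at least 10% of the counts. The Rnf43 transcript ENSMUST00000165679 was added after its values were seen. Promoter windows come from RefSeq (GRCm38.p6) and were not combined with positions from the deposited table. No library pair within a group agreed within sampling noise (the smallest chi-square was 30.2 times its degrees of freedom).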

Additional observations from a re-analysis of the deposited data

How the results depend on the processing

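No change reversed its direction under any of the 19 alternatives for the genes called. Of the 29 Wnt genes called in bleomycin against control, 17 passed all of them, of the 12 in LNP against control 4 did (Axin2, Fzd4, Sfrp1 and Wnt10a), and of the 3 in LNP against bleomycin none did. Genes under 1 CPM rest on few counts, and low counts cluster at multiples of 4.

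Replicate numbers did not pair the libraries (correlations of same-numbered deviations between -0.018 and 0.04, and only in bleomycin against control did every library correlate best with its own number), so the replicate block is given for LNP comparisons as counts of calls only. With the block, LNP against bleomycin gave 0 Wnt genes higher and 0 lower, 346 and 86 of all genes and 0 pathway list genes. LNP against control gave 4 Wnt genes higher and 3 lower, 718 and 401 of all genes and 6 pathway list genes.

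In LNP against bleomycin, the main counts were 2 Wnt genes higher and 1 lower, 891 genes higher and 389 lower, and 4 pathway list genes. DESeq2 gave 6, 4, 1930, 1081 and 9. The fit on the 2 groups alone gave 0, 0, 218, 100 and 0. Without a count filter it was 0 Wnt genes higher, 197 genes lower and 2 list genes. With limma on log2(FPKM + 1) without a filter it was 1 Wnt gene higher, 0 lower and 193 genes lower, and limma on log2(FPKM + 0.1) gave 237 genes lower. Library totals alone gave 253 genes lower and moved the median of all genes to 0.16, from 0.038 (to -0.115, from -0.046, in bleomycin against control). Counts divided by 4, an alternative chosen after seeing the data, gave 3 Wnt genes lower.

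In LNP against control, the main counts were 6 and 6 Wnt genes and 1030 and 641 genes. DESeq2 gave 11 Wnt genes lower and 1815 and 1122 genes, the 2 groups alone 679 and 331 genes, and limma on log2(FPKM + 1) without a filter 3 Wnt genes higher. The cause of these differences was not tested.

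Leaving out 1 library at a time gave these ranges. In bleomycin against control, 9 to 16 Wnt genes were higher and 10 to 19 lower, 1951 to 4374 genes were higher and 2412 to 4728 lower, and 21 to 31 pathway list genes were called. In LNP against bleomycin, 0 to 10 Wnt genes were higher and 0 to 13 lower, 84 to 2987 genes were higher and 18 to 2297 lower, and 0 to 17 list genes were called. In LNP against control, 3 to 6 Wnt genes were higher and 3 to 7 lower, 491 to 1369 genes were higher and 226 to 963 lower, and 5 to 13 list genes were called. For all genes, the fewest calls came without bleomycin replicate 1 or 2 in bleomycin against control, without bleomycin replicate 2 in LNP against bleomycin and without control replicate 1 in LNP against control, and the most without LNP replicate 3 in all 3.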
